A study of Saccharomyces cerevisiae with 18 samples.

Results

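The large ribosomal subunit assembly genes code for the proteins that build the 60S subunit of the budding yeast ribosome without being part of the finished particle. The set is a list of 50 named genes, measured through probe sets (groups of short oligonucleotides on the array) that match 1 gene only. All 50 were found among the 5656 genes with such a probe set, 49 by symbol and MDN1 by its older name REA1, and all 50 passed the filter on dim probe sets, which left 5545 genes tested. The groups were a far1 deletion strain (far1Δ, marked with his3) in ethanol and in glucose, a strain carrying the plasmid pTet-FAR1-15Myc (FAR1OE) in ethanol and in glucose, and the wild type (WT) W303-1A in ethanol and in glucose. All 6 groups share the W303-1A background, whose alleles include can1-100, ura3-1, trp1-1, his3-11, ade2-1 and a leu2 allele with the mutations 3 and 112, and grew exponentially in synthetic complete medium. Each group has 3 arrays (Affymetrix yeast S98) from independent cultures, 18 in all. Far1 inhibits the cyclin-dependent kinase that starts the cell cycle, and the study asked how its dosage alters transcription in the 2 carbon sources.

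Large subunit assembly starts in the nucleolus on the ribosomal RNA (rRNA) precursor and proceeds through the nucleoplasm to the cytoplasm. RNA helicases and GTPases drive changes of structure, and scaffold proteins hold and process the rRNA. Other factors escort the particle out of the nucleus or keep it inactive until it is mature. In yeast these genes belong to the ribosome biogenesis regulon, whose RNA levels are known to move together with nutrients and growth.

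Some arrays stood apart or went against their labels. The FAR1 signal was 2596 on array 3 labelled far1Δ ethanol, while the 5 other far1Δ arrays read 4.1 to 7.0. It was 3.3 on array 3 labelled FAR1OE ethanol, while the 5 other FAR1OE arrays read 556.9 to 2722. Arrays 1 and 3 of FAR1OE glucose gave almost no signal for the 5′ end of the actin control. Their log2 ratios of 3′ to 5′ signal were 8.18 and 9.07, against 0.32 to 1.04 on the 16 other arrays. They also had the lowest 5′ signals of the TBP and SRB4 controls. TBP read 29.4 and 17.1 there, against 32.9 to 92.9 on the others, and SRB4 1.0 and 0.5, against 2.8 to 6.3. HIS3 and TRP1 read 127.2 to 340.0 and 186.6 to 663.1 on the 12 far1Δ and FAR1OE arrays, against 6.4 to 10.2 and 6.9 to 31.9 on the 6 WT arrays, so the strains differed in these 2 genes as well. The 5′ to 3′ ratio of the BioDn hybridisation control was 0.169 to 0.231 on the 6 WT arrays and far1Δ glucose array 1, and 0.369 to 0.575 on the 11 others. Only far1Δ glucose held arrays from both ranges, so results with this ratio as a block rest on its array 1 against its arrays 2 and 3. The labels give mating type a, but its defining markers were near background (STE2 0.1 to 2.4, summed level of the 6 markers 9.0 to 31.8) and most of those of mating type alpha were higher (STE3 38.4 to 136.4, MF(ALPHA)1 445.7 to 2399, summed level of the 4 markers 545.3 to 3673). Of the alpha markers, MF(ALPHA)2 read 2.4 to 5.1 on the ethanol arrays, against 234.5 to 1011 on the glucose arrays, and SAG1 8.2 to 20.5, against 37.2 to 126.7. The part of these features in the results was not tested beyond the values given without those arrays or with the BioDn ratio as a block.

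The question first asked was how the assembly genes differed between ethanol and glucose in each strain. Nearly all of them were lower in ethanol. In far1Δ 42 of 50 fell and 8 were not called. In FAR1OE 45 of 50 fell and 5 were not called. In WT 48 of 50 fell, TIF6 rose and SPB4 was not called. The calls are those of limma with Benjamini-Hochberg adjustment over all 5545 genes and a threshold of 0.05. The share of all genes called lower was 21.2% in far1Δ, 22.8% in FAR1OE and 20.9% in WT, and 42.9%, 40.2% and 43.3% were called in either direction. The median log2 change of the 50 genes was -0.93 in far1Δ, -0.93 in FAR1OE and -1.01 in WT, which is close to a 2-fold fall, while the median over all genes tested was -0.01, -0.09 and 0.00. In 39 genes the fall passed the test in all 3 strains. Without the 2 arrays whose FAR1 signal was opposite to the label, 42, 42 and 49 members were called in far1Δ, FAR1OE and WT. Without the 2 arrays lacking actin 5′ signal the counts were 41 in far1Δ and 49 in WT, and the same without all 4 arrays. The shares of all genes called were not set beside these counts. A change in the members can therefore not be told from a change in all genes. Both last settings leave FAR1OE glucose with 1 array, so no FAR1OE count is given for them. That group is then assumed to vary like the others. In the other results, FAR1OE values of these settings do not tell the doubted arrays from the smaller number of arrays.

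**Figure D1:**
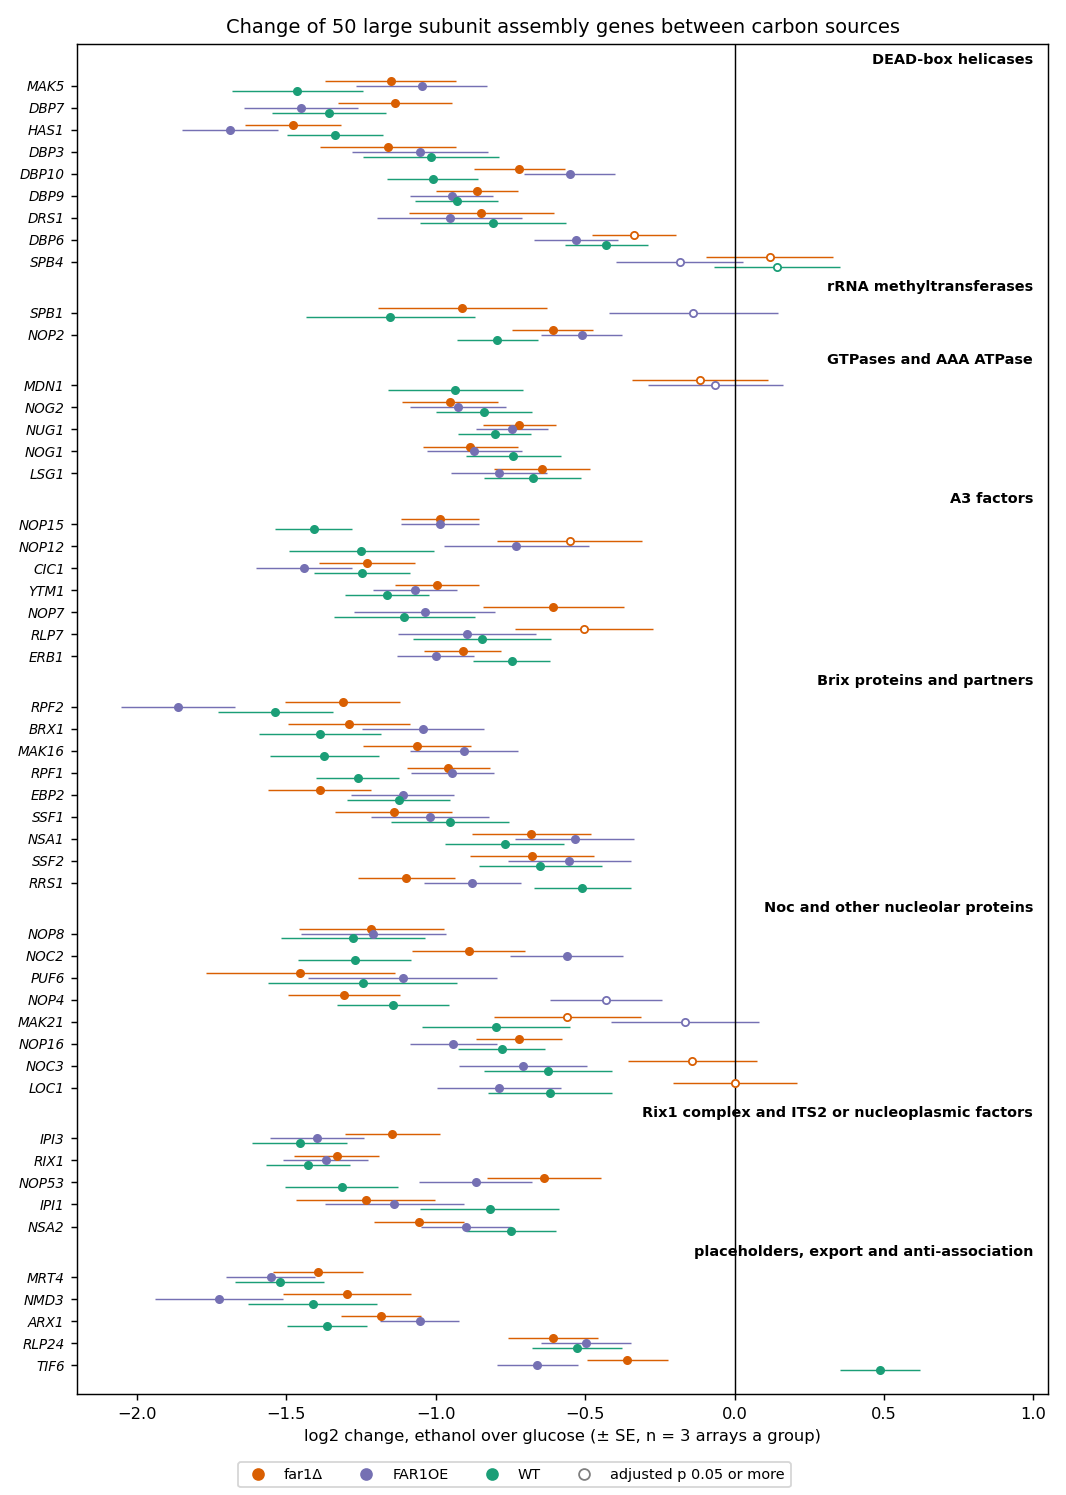
Each row is 1 of the 50 genes, grouped by role, and the horizontal axis is the log2 change of ethanol over glucose with its standard error (3 arrays a group). Orange points are far1Δ, purple FAR1OE and green WT, and open points did not pass the threshold of 0.05. Most points lie between -0.5 and -1.5, SPB4 sits near 0, and TIF6 in WT is the filled point right of 0.

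The fall was also visible array by array. In ethanol the median over the 50 genes of the log2 level, relative to each gene's mean in WT glucose, was -0.996, -0.93 and -1.07 on the far1Δ arrays, -1.04, -1.09 and -1.003 on the FAR1OE arrays and -1.14, -0.89 and -0.97 on the WT arrays. In glucose it was -0.11, -0.09 and -0.10 in far1Δ, -0.05, -0.21 and -0.11 in FAR1OE and -0.07, 0.11 and -0.04 in WT. The ethanol and glucose arrays did not overlap in any strain. Gene by gene, all 3 ethanol arrays lay below all 3 glucose arrays for 44 genes in far1Δ, 45 in FAR1OE and 46 in WT. The same held for 1444, 1629 and 1510 of all 5545 genes. Groups that did not overlap in either direction were found for 88%, 90% and 94% of members, against 52.7%, 50% and 54.9% of all genes.

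**Figure D2:**
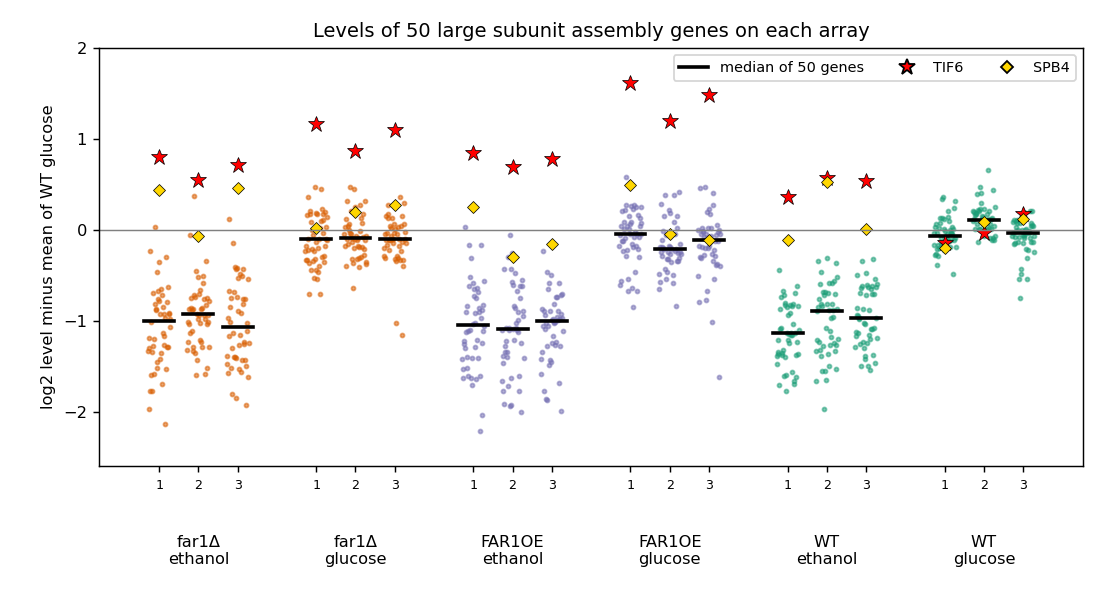
Each column of dots is 1 array, and the vertical axis is the log2 level of a gene minus its mean in WT glucose. The black bar is the median of the 50 genes, the red star is TIF6 and the yellow diamond SPB4. The bars lie between -0.89 and -1.14 on the 9 ethanol arrays and between -0.21 and 0.11 on the 9 glucose arrays.

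The scale of the arrays bears on how these changes are read. The deposited values differed in overall level between arrays, and array medians ranged from 8.5 to 23.9. On the deposited scale the median of all genes was higher in ethanol by 0.36 in far1Δ, 0.28 in FAR1OE and 0.66 in WT on the log2 scale. Without normalisation 13 genes fell in far1Δ and 11 in FAR1OE, and in WT 5 fell and 2 (SPB4 and TIF6) rose. Of all genes, 33.3%, 26.3% and 45.7% were then called. The median of the 50 genes was then -0.56, -0.61 and -0.31. As deposited, 8 genes that fell in WT after normalisation (DBP6, LSG1, NSA1, RRS1, SSF2, NOC3, LOC1 and RLP24) had changes above 0, up to 0.31, and none of the 8 was called. In far1Δ 3 genes and in FAR1OE 4 genes changed sign, all of them not called on either scale. Relative to the median of all genes the assembly genes were lower by almost the same amount on either scale, with differences of -0.92, -0.89 and -0.97 as deposited and -0.93, -0.85 and -1.02 after quantile normalisation. On both scales 48 of 50 lay below the all-gene median in far1Δ and WT, and in FAR1OE 48 did so as deposited and 49 after normalisation. The arrays measure relative abundance in a culture, so fewer cells of a kind and less RNA per cell cannot be told apart. Normalised values are used from here on.

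**Figure D3:**
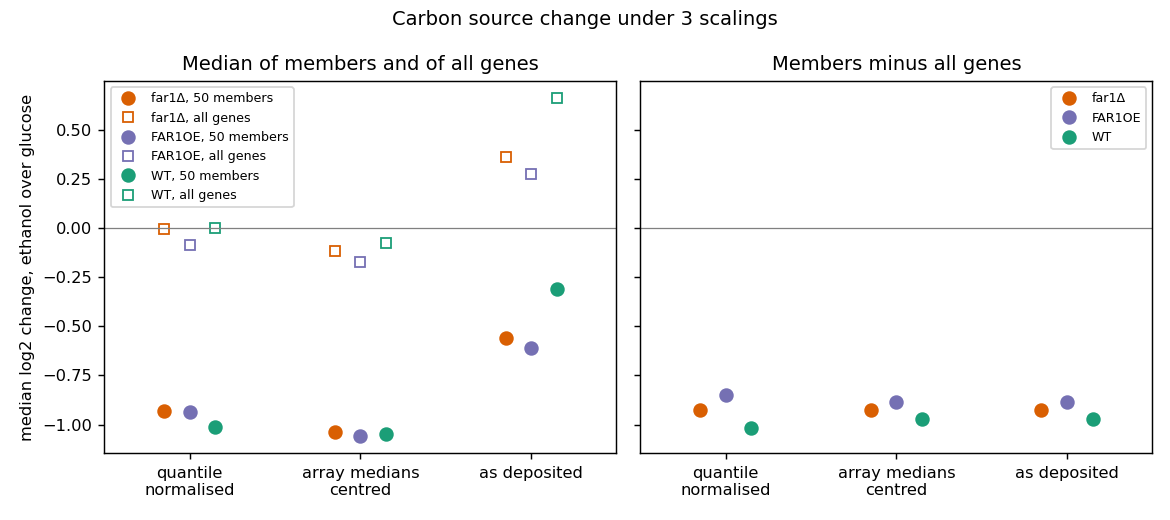
The left panel gives the median log2 change of ethanol over glucose for the 50 genes (filled) and for all genes tested (open squares), and the right panel the difference between them, for quantile normalised, median-centred and deposited values. Orange is far1Δ, purple FAR1OE and green WT. The medians move with the scaling, and the difference stays between -0.85 and -1.02. Centring subtracts a constant from each array, so the difference for median-centred values equals that for deposited values by construction.

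The DEAD-box helicases, which remodel rRNA with energy from ATP, fell in 7 of 9 cases in far1Δ, 8 of 9 in FAR1OE and 8 of 9 in WT, with median log2 changes of -0.86, -0.95 and -1.01. MAK5, an early nucleolar helicase, had an intensity of 30.3, 20.3 and 39.3 in WT ethanol, against 88.3, 98.9 and 59.5 in WT glucose. The groups did not overlap, and the log2 change was -1.46 ± 0.22 (SE, n = 3, adjusted p = 3.33e-05). HAS1, a helicase used in the assembly of both subunits, had the largest fall of the set in far1Δ. It read 20.8, 20.6 and 20.5 in far1Δ ethanol, against 58.8, 71.0 and 47.2 in far1Δ glucose, a change of -1.48 ± 0.16 (adjusted p = 7.86e-07). In FAR1OE it read 17.5, 19.9 and 13.7 in ethanol, against 59.3, 56.6 and 50.1 in glucose, a change of -1.69 (adjusted p = 1.97e-07).

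SPB4, a helicase of later nuclear particles, was the only member not called between carbon sources in any strain. It read 34.1, 23.8 and 34.6 in far1Δ ethanol, against 25.3, 28.7 and 30.2 in far1Δ glucose. It read 29.7, 20.2 and 22.5 in FAR1OE ethanol, against 35.4, 24.3 and 23.2 in FAR1OE glucose, and 23.2, 36.0 and 25.2 in WT ethanol, against 21.6, 26.6 and 27.1 in WT glucose. All 3 pairs of groups overlapped, and the log2 changes were 0.12, -0.18 and 0.14 with a standard error of 0.21 (adjusted p = 0.697, 0.524 and 0.627). On the deposited scale SPB4 was called higher in WT ethanol by 0.87 ± 0.28 (adjusted p = 0.0143), where the median of all genes was also higher, by 0.66. DBP6, which was not called in far1Δ (-0.34, adjusted p = 0.0610), fell by 0.53 in FAR1OE and by 0.43 in WT.

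Of the 2 rRNA methyltransferases, NOP2 modifies a cytosine of the 25S rRNA and SPB1 a ribose. NOP2 fell in all 3 strains, by 0.61, 0.51 and 0.79 on the log2 scale in far1Δ, FAR1OE and WT. SPB1 read 14.3, 14.0 and 13.3 in far1Δ ethanol, against 25.5, 25.3 and 28.6 in far1Δ glucose (change -0.91 ± 0.28, adjusted p = 0.0147), and 11.4, 11.1 and 13.8 in WT ethanol, against 32.3, 25.3 and 24.9 in WT glucose (change -1.15, adjusted p = 0.00307). In FAR1OE it read 15.2, 18.5 and 14.3 in ethanol, against 28.0, 22.0 and 8.66 in glucose (change -0.14, adjusted p = 0.737). The low glucose value came from array 3, 1 of the 2 arrays that lacked actin 5′ signal. The other, array 1, gave the highest value of the group, 28.0.

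The GTPases NOG1, NOG2, NUG1 and LSG1, which act as checkpoints along the path, fell in all 3 strains, by 0.64 to 0.95 in far1Δ, 0.74 to 0.93 in FAR1OE and 0.68 to 0.84 in WT. MDN1 codes for the giant AAA ATPase that pulls other assembly factors off the particle. In ethanol it read 19.5, 19.7 and 20.02 in far1Δ, 21.8, 20.02 and 14.4 in FAR1OE and 15.2, 16.8 and 10.8 in WT. In glucose it read 23.2, 17.4 and 24.5 in far1Δ, 18.6, 22.9 and 16.9 in FAR1OE and 35.1, 29.5 and 19.3 in WT. Only the WT groups stood apart, with a change of -0.93 ± 0.23 (adjusted p = 0.00284), while far1Δ gave -0.12 (adjusted p = 0.720) and FAR1OE -0.06 (adjusted p = 0.852). The differences from the WT change were 0.82 ± 0.32 and 0.87 ± 0.32 and did not pass the test (adjusted p = 0.540 and 0.250). WT glucose array 3 was the lowest of its group at 19.3.

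The A3 factors are needed for processing of the spacer upstream of the 5.8S rRNA. Of the 7, 5 fell in far1Δ and all 7 in FAR1OE and WT, with medians of -0.91, -1.001 and -1.16. NOP15 had the largest WT change of the group. It read 50.7, 42.3 and 42.4 in WT ethanol, against 112, 128 and 119.9 in WT glucose, a change of -1.41 ± 0.13 (adjusted p = 1.01e-07). ERB1, YTM1 and NOP7, which form 1 complex, fell in all 3 strains, by 0.61 to 1.16. RLP7, a relative of a ribosomal protein of the large subunit, read 43.9, 42.9 and 28.2 in far1Δ ethanol, against 62.6, 72.0 and 33.9 in far1Δ glucose. The 2 groups overlapped because of the third glucose array, and the change of -0.50 ± 0.23 was not called (adjusted p = 0.0902), while without far1Δ glucose array 3 it was -0.83 (adjusted p = 0.00313). RLP7 fell by 0.89 in FAR1OE and 0.85 in WT. NOP12 was likewise not called in far1Δ (-0.55, adjusted p = 0.0767) and fell in FAR1OE and WT, by 0.73 and 1.25.

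The Brix proteins, an RNA-binding family, and their partners were lower throughout. All 9 fell in each strain, with medians of -1.10 in far1Δ, -0.94 in FAR1OE and -1.12 in WT. RPF2, which works with RRS1 to dock the 5S ribonucleoprotein, had the largest fall of all 50 genes in both FAR1OE and WT. It read 36.2, 37.1 and 37.4 in FAR1OE ethanol, against 142, 118 and 147 in FAR1OE glucose, a change of -1.86 ± 0.19 (adjusted p = 5.91e-07) or a 3.64-fold fall. It read 48.6, 51.5 and 54.1 in WT ethanol, against 107, 202 and 156 in WT glucose, a 2.90-fold fall (-1.54, adjusted p = 4.35e-06). In far1Δ it read 61.3, 52.1 and 39.3 in ethanol, against 133, 129 and 114 in glucose (-1.31, adjusted p = 2.58e-05). The glucose and ethanol values were far apart in all 3 strains. RRS1 itself fell by 1.10, 0.88 and 0.51 in far1Δ, FAR1OE and WT.

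SSF1 and SSF2 are near-identical copies whose probe sets may share signal, so their values cannot be fully told apart. SSF1 fell by 1.14, 1.02 and 0.95 in far1Δ, FAR1OE and WT. SSF2, a dim probe set, read 7.14, 8.26 and 9.83 in far1Δ ethanol against 15.97, 11.1 and 14.2 in far1Δ glucose, 9.65, 7.35 and 8.70 in FAR1OE ethanol against 15.3, 12.2 and 10.9 in FAR1OE glucose, and 7.92, 10.0 and 9.44 in WT ethanol against 18.1, 13.8 and 12.2 in WT glucose. On this probe set, the brighter of 2, the groups did not overlap in any strain. On the second the groups overlapped in far1Δ (2.01, 3.76 and 4.36 in ethanol, 3.58, 5.86 and 11.4 in glucose). They also overlapped in WT (4.31, 1.79 and 4.76 in ethanol, 1.99, 3.47 and 9.21 in glucose) and did not in FAR1OE. The values that follow are those of the brighter probe set. The changes were -0.68, -0.55 and -0.65 with a standard error of 0.21 (adjusted p = 0.0130, 0.0404 and 0.0167). The calls rested on single arrays. That in far1Δ was lost without glucose array 1 or ethanol array 1 (-0.56 and -0.57), that in FAR1OE without glucose array 1 or 2 or ethanol array 2 or 3 (-0.58 to -0.42), and that in WT without glucose array 1 or ethanol array 1 (-0.49 and -0.56).

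Among the Noc proteins and other nucleolar factors 5 of 8 fell in far1Δ, 6 of 8 in FAR1OE and all 8 in WT, with medians of -0.81, -0.75 and -0.97. NOP8, which joins early particles, had the largest WT fall of the group (-1.28 ± 0.24, adjusted p = 3.43e-04). It read 8.93, 11.8 and 12.6 in WT ethanol, against 29.1, 29.7 and 23.4 in WT glucose. PUF6, which also represses ASH1 mRNA, had the second largest fall in far1Δ. It read 5.79, 13.4 and 11.2 in far1Δ ethanol, against 30.2, 28.2 and 22.8 in far1Δ glucose (-1.45 ± 0.32, adjusted p = 0.00121). The groups stood apart, with ethanol array 1 the lowest. Members not called were MAK21, NOC3 and LOC1 in far1Δ (-0.56, -0.14 and 0.00, adjusted p = 0.0784, 0.638 and 0.995) and MAK21 and NOP4 in FAR1OE (-0.17 and -0.43, adjusted p = 0.632 and 0.0768).

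The Rix1 complex and the factors that act on the second internal spacer or in the nucleoplasm fell in all 5 cases in each strain, with medians of -1.15, -1.14 and -1.31. IPI3, a subunit of the Rix1 complex, read 10.5, 12.6 and 14.6 in far1Δ ethanol, against 23.6, 31.2 and 29.8 in far1Δ glucose. It read 10.4, 9.55 and 8.57 in FAR1OE ethanol, against 26.5, 23.9 and 26.5 in FAR1OE glucose, and 12.7, 10.8 and 11.2 in WT ethanol, against 35.4, 32.6 and 29.4 in WT glucose. The changes were -1.15 ± 0.16, -1.40 and -1.46, with adjusted p at or below 1.41e-05. RIX1 fell by 1.33, 1.37 and 1.43, and IPI1, the other named subunit, by 1.23, 1.14 and 0.82. RIX1 was also the gene whose level followed the median of the other 49 most closely over the 18 arrays (r = 0.97, a description of arrays that share the carbon source contrast).

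The last group holds the placeholders for ribosomal proteins, the export factors and the anti-association factor TIF6. MRT4, which holds the place of the stalk protein P0, read 62.6, 66.6 and 49.8 in far1Δ ethanol, against 145, 157 and 169 in far1Δ glucose. It read 54.9, 58.0 and 66.6 in FAR1OE ethanol, against 181, 144 and 208 in FAR1OE glucose, and 59.3, 61.4 and 67.2 in WT ethanol, against 162, 200.1 and 181 in WT glucose. The changes of -1.39 ± 0.15, -1.55 and -1.52 were among the largest in each strain (adjusted p at or below 7.40e-07). RLP24, the placeholder for a ribosomal protein of the L24 family, moved less, with changes of -0.61 ± 0.15, -0.50 and -0.53 (adjusted p = 0.00326, 0.0135 and 0.00852). The FAR1OE call was lost without FAR1OE glucose array 1 (-0.44) or FAR1OE ethanol array 2 or 3 (-0.42 and -0.43). NMD3, the adaptor for export through Crm1, fell by 1.30, 1.73 and 1.41, and ARX1, an export receptor, by 1.18, 1.054 and 1.36.

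TIF6, the yeast eIF6, keeps the large subunit from joining the small one until late in maturation. It did not follow the other members. In ethanol it read 158, 132 and 149 in far1Δ, 163, 147 and 156 in FAR1OE and 117, 134 and 131 in WT. In glucose it read 204, 166 and 194 in far1Δ, 278, 208 and 254 in FAR1OE and 82.3, 88.7 and 102 in WT. Its ethanol values were lower than its glucose values in both far1Δ (-0.36 ± 0.13, adjusted p = 0.0391) and FAR1OE (-0.66, adjusted p = 7.63e-04), and higher in WT (0.49, adjusted p = 0.00697), with no overlap in any strain. The far1Δ fall was lost without far1Δ ethanol array 2 or 3 (-0.29 and -0.37) or far1Δ glucose array 1 or 3 (-0.30 and -0.33), and without the pair of arrays whose FAR1 signal was opposite to the label (-0.37, adjusted p = 0.0658). The FAR1OE fall was lost without the 2 arrays lacking actin 5′ signal, with 1 FAR1OE glucose array left (-0.42, adjusted p = 0.110), and the WT rise with median-centred arrays (0.31, adjusted p = 0.103).

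**Figure D4:**
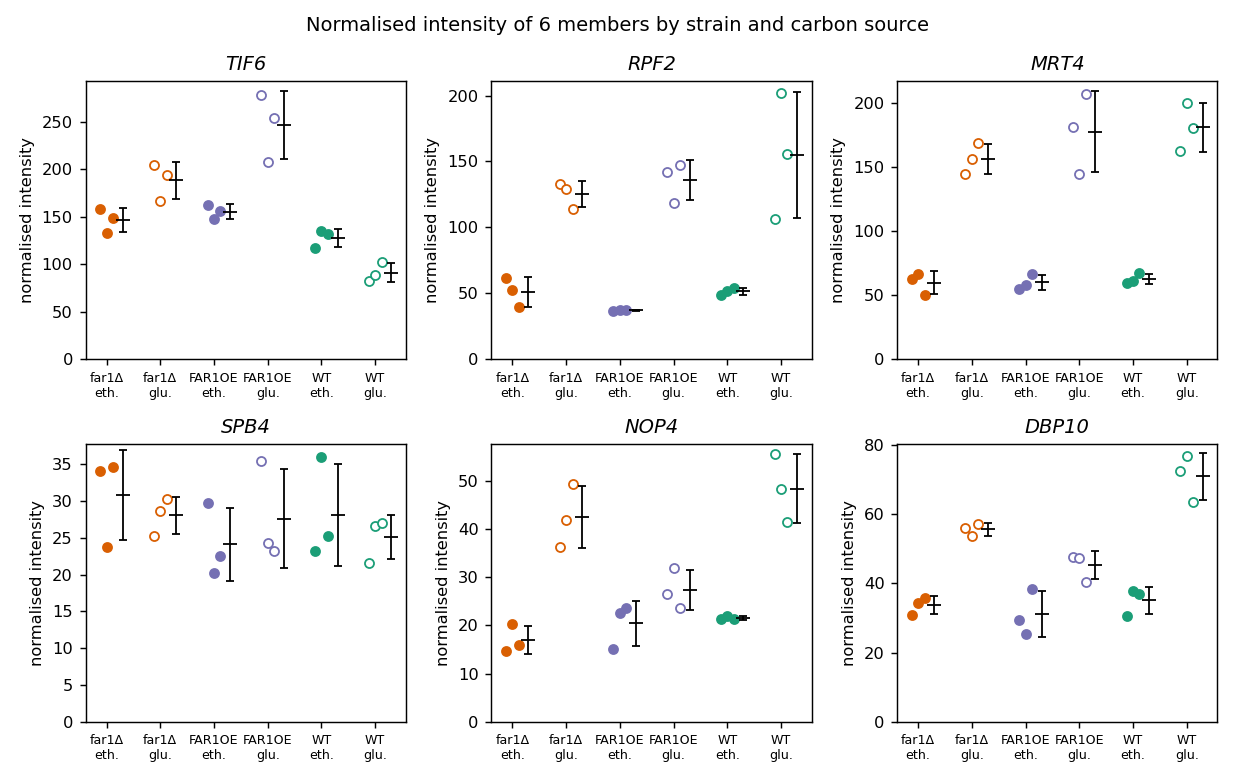
Normalised intensity of TIF6, RPF2, MRT4, SPB4, NOP4 and DBP10 on each array, with axes from 0. Filled points are ethanol and open points glucose, orange far1Δ, purple FAR1OE and green WT, and black bars give the mean ± SD of 3 arrays. TIF6 is highest in FAR1OE glucose (208 to 278) and lowest in WT glucose (82.3 to 102), while RPF2 and MRT4 are low in ethanol in every strain.

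The next question was how the assembly genes differed between strains within a carbon source. The strains with altered FAR1 also differed from WT in HIS3 and TRP1 and, on most arrays, in the BioDn ratio. The part of each in the strain differences was not tested. In glucose, TIF6 rose in both altered strains, and of the other members only NOP4 and DBP10 were called, both lower in FAR1OE. TIF6 averaged 188 ± 19.8 in far1Δ glucose, 247 ± 35.8 in FAR1OE glucose and 91.0 ± 10.2 in WT glucose (SD, n = 3 each). It was 2.06-fold higher in far1Δ (log2 1.04 ± 0.13, adjusted p = 6.40e-04) and 2.69-fold higher in FAR1OE (1.43, adjusted p = 6.51e-06), and every array of either strain lay above every WT array. Leaving out any 1 array kept both calls. The 1 FAR1OE glucose array with actin 5′ signal, array 2, read 208, which gave 1.19 over WT (adjusted p = 0.00537, its spread taken from the other groups). Array 1 of far1Δ glucose, which shares the low BioDn ratio of the WT arrays, read 204, against 82.3 to 102 in WT glucose. With the BioDn ratio as a block, which rests on this 1 array, the changes were 1.17 and 1.62. On the deposited scale they were 1.64 and 2.01, and both remained called. The change was in the same direction in the strain without FAR1 and in the strain with more of it. The direct comparison of FAR1OE with far1Δ gave 0.39 ± 0.13 (adjusted p = 0.118).

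TIF6 was the only member called in far1Δ over WT glucose, where 1.57% of all genes were called and 1.21% called higher. In FAR1OE over WT glucose 3 members were called, 1 higher and 2 lower, where 7.39% of all genes were called, 5.36% higher and 2.04% lower. The other 2 were NOP4 and DBP10. NOP4, an RNA-binding nucleolar protein, read 26.6, 31.8 and 23.6 in FAR1OE glucose and 36.3, 42.0 and 49.3 in far1Δ glucose, against 55.7, 48.2 and 41.4 in WT glucose. The FAR1OE arrays lay below all WT arrays, with a change of -0.82 ± 0.19 (adjusted p = 0.0130). DBP10, a helicase of nucleolar particles, read 47.7, 47.4 and 40.5 in FAR1OE glucose and 56.1, 53.6 and 57.2 in far1Δ glucose, against 72.4, 76.8 and 63.5 in WT glucose, with a FAR1OE change of -0.65 ± 0.15 (adjusted p = 0.0147).

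Both falls were lost without the 2 arrays lacking actin 5′ signal, with 1 FAR1OE glucose array left (NOP4 -0.59, adjusted p = 0.459, and DBP10 -0.57, adjusted p = 0.330). With the BioDn ratio as a block, which rests on far1Δ glucose array 1, neither was called (-1.14, adjusted p = 0.143, and -0.63, adjusted p = 0.383). Without WT glucose array 1 or 2 or FAR1OE glucose array 3 both were lost as well (-0.81 to -0.71 for NOP4 and -0.63 to -0.57 for DBP10), and NOP4 also without FAR1OE glucose array 1 (-0.80). On the deposited scale neither was called (-0.32 and -0.13), while TIF6, DBP6 (0.84) and LOC1 (1.03) were higher. With median-centred arrays 5 members were called, with DBP6 (0.47) and LOC1 (0.66) higher as well. The median log2 change over the 50 genes was -0.10 in far1Δ over WT and -0.14 in FAR1OE over WT in glucose, against -0.02 and 0.07 over all genes. In FAR1OE over far1Δ glucose limma called 0 of 50 members (4 at an unadjusted p under 0.05), with 2.85% of all genes called. The 3 smallest p belonged to NOP4 (-0.63, adjusted p = 0.0720), TIF6 (above) and RLP7 (0.51, adjusted p = 0.221). The groups did not overlap for 9 members in far1Δ over WT, 11 in FAR1OE over WT and 5 in FAR1OE over far1Δ, which is 18%, 22% and 10% of them, against 18.6%, 22.9% and 24.1% of all genes. Without FAR1OE glucose array 2, NOP4 (-0.74, adjusted p = 0.0310) and TIF6 (0.51, adjusted p = 0.0317) were called in FAR1OE over far1Δ. That setting leaves FAR1OE glucose with only the 2 arrays lacking actin 5′ signal.

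**Figure D5:**
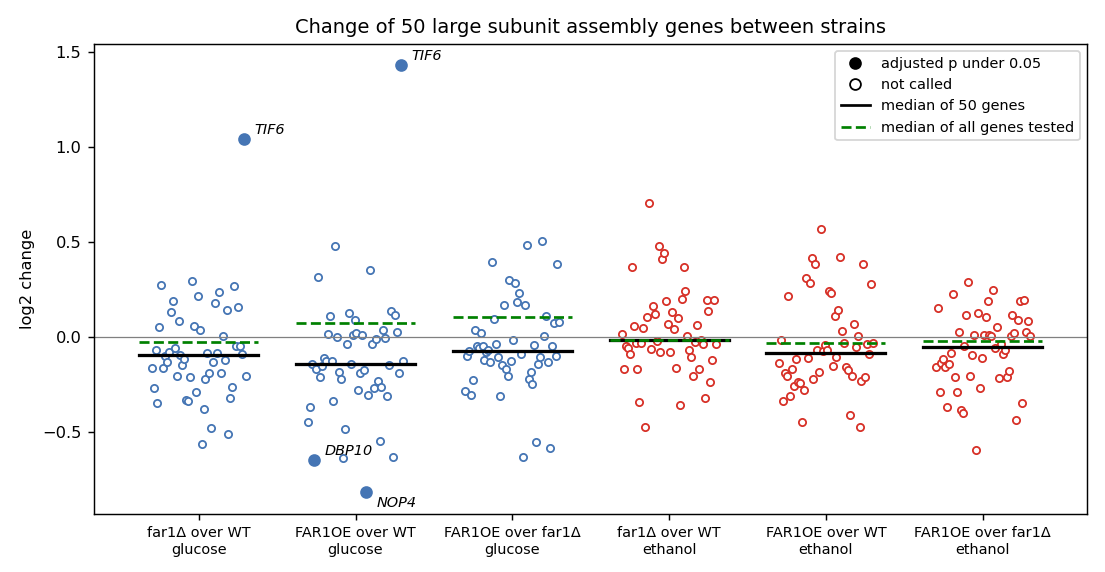
Each point is 1 of the 50 genes, and the vertical axis is its log2 change between the 2 strains named below, in glucose (blue) or ethanol (red). Filled points passed the threshold of 0.05, black bars are the median of the 50 genes and green dashes that of all genes tested. Only TIF6, NOP4 and DBP10 are filled, all in glucose.

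NOG2 has a second probe set that differed from the one used here on 2 arrays. The brighter probe set, the one used, read 133, 110.0 and 141 in FAR1OE glucose, against 142, 119.96 and 126 in far1Δ glucose and 125, 135 and 118 in WT glucose. The second read 1.97, 64.5 and 1.99 in FAR1OE glucose, against 58.6, 61.8 and 80.6 in far1Δ glucose and 60.1, 57.5 and 48.7 in WT glucose. The 2 near-zero values were on the 2 arrays lacking actin 5′ signal. With probe sets averaged, NOG2 was called lower in FAR1OE than in far1Δ (-1.62, adjusted p = 0.0305) and than in WT (-1.47, adjusted p = 0.0252) in glucose.

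In ethanol no member was called between strains. limma called 0 of 50 in far1Δ over WT (4 at an unadjusted p under 0.05), 0 of 50 in FAR1OE over WT (2) and 0 of 50 in FAR1OE over far1Δ (3). The shares of all genes called were 0.0721%, 0.379% and 0%. These counts stayed at 0 without the arrays whose FAR1 signal was opposite to the label. The members' log2 changes ran from -0.47 to 0.71, from -0.47 to 0.57 and from -0.59 to 0.29. The smallest p were those of LOC1 (0.71 ± 0.21, adjusted p = 0.481), DBP6 (0.37) and NOC2 (0.44) in far1Δ over WT. In FAR1OE over WT they were those of NOC2 (0.57 ± 0.19, adjusted p = 0.235), RPF2 (-0.47) and TIF6 (0.28, adjusted p = 0.458), and in FAR1OE over far1Δ those of NMD3 (-0.59 ± 0.21, adjusted p = 0.751), IPI3 (-0.38) and RPF2 (-0.44). LOC1, a nucleolar protein also needed to localise ASH1 mRNA, read 47.5, 59.97 and 41.9 in far1Δ ethanol, against 28.9, 25.8 and 36.3 in WT ethanol, and these groups did not overlap. Groups that did not overlap were found for 14% of members in far1Δ over WT, 18% in FAR1OE over WT and 12% in FAR1OE over far1Δ, against 13.3%, 19.7% and 9.31% of all genes.

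Whether the strain effect differed between carbon sources was tested as an interaction. For FAR1OE, TIF6 was the only member called, with a difference of -1.15 ± 0.19 (ethanol minus glucose, adjusted p = 0.0217), where 0.18% of all genes were called, 0.018% higher and 0.162% lower. The strain effect on TIF6 was 0.28 in ethanol and 1.43 in glucose. The call was lost without the arrays lacking actin 5′ signal, with 1 FAR1OE glucose array left (-0.91, adjusted p = 0.174), without any 1 of FAR1OE glucose array 1, FAR1OE ethanol array 2, WT ethanol array 2 and WT ethanol array 3 (-1.12 to -1.06), and on the deposited scale (-1.59, adjusted p = 0.0662). For far1Δ limma called 0 of 50 members (6 at an unadjusted p under 0.05) and 0% of all genes. TIF6 had the smallest p among members (-0.85 ± 0.19, adjusted p = 0.271), before RRS1 (-0.59) and MDN1.

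The members' levels were correlated across all arrays and much less within groups. Over the 18 arrays the median pairwise correlation among the 50 genes was 0.81, against 0.01 among all genes tested. After each group's mean was removed it was 0.10, against 0.02. The members least like the median of the other 49 over the 18 arrays were SPB4 (r = -0.04), TIF6 (0.18), LOC1 (0.53) and MDN1 (0.53). The sizes of the falls followed each other moderately between strains. Across the 50 genes the change in far1Δ correlated with that in WT at r = 0.69 (rho 0.68), that in FAR1OE with WT at r = 0.57 (rho 0.65), and that in FAR1OE with far1Δ at r = 0.70 (rho 0.77). These are descriptions over genes, which are not independent replicates.

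Other genes of the pathway were also mostly lower in ethanol. Of 39 further large subunit assembly genes, 33 fell in far1Δ, 31 in FAR1OE and 35 in WT between ethanol and glucose, with medians of -0.98, -1.01 and -1.08. DBP2 fell by 2.12, 2.05 and 2.07 in far1Δ, FAR1OE and WT. NIP7 had log2 changes of -1.495, -1.19 and -1.58, and SDO1, which helps to release Tif6 from the particle, of -1.499, -1.41 and -1.99. The only further factor called higher was RSA1 in far1Δ (1.01 ± 0.36, adjusted p = 0.0314). Of 38 genes of the small subunit processome, 35, 33 and 34 fell, with medians of -0.93, -0.87 and -0.999. Of 47 cytosolic ribosomal protein genes of the large subunit, 25 fell in far1Δ and 22 in FAR1OE, and in WT 16 fell and 1 rose, with smaller medians of -0.38, -0.38 and -0.25.

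The regulators SFP1, DOT6, TOD6 and STB3 were examined beside the set, and only TOD6 fell in all 3 strains. Sfp1 activates ribosome biogenesis genes, whereas Dot6, Tod6 and Stb3 bind their promoters as repressors. TOD6 averaged 20.7 ± 3.59 in far1Δ ethanol against 39.7 ± 6.14 in far1Δ glucose, 17.6 ± 3.63 in FAR1OE ethanol against 35.1 ± 6.78 in FAR1OE glucose, and 19.1 ± 3.62 in WT ethanol against 42.3 ± 6.24 in WT glucose (SD, n = 3 each). Its log2 changes were -0.93, -0.98 and -1.14 (adjusted p = 0.00124, 8.87e-04 and 1.94e-04), close to the median of the assembly genes. DOT6 rose in ethanol in far1Δ (0.41, adjusted p = 0.0397) and FAR1OE (0.44, adjusted p = 0.0297) and was not called in WT (0.35, adjusted p = 0.0748). STB3 rose in FAR1OE (0.79, adjusted p = 0.0284) and SFP1 in WT (0.45, adjusted p = 0.0398), and neither was called in the other strains. No regulator was called between strains.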

How the data were processed

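RNA was hybridised to 18 Affymetrix yeast S98 arrays. The files hold an intensity per probe set on a linear scale, made by the authors with GCOS, per the submitters' processing notes (version, scaling and genome build not given in the sources used here, so coordinates are left out). To each intensity 0.4 was added, the 10th percentile of all deposited values, before log2 was taken. Arrays were then quantile normalised over the 9275 probe sets that are not among the 60 controls. Probe sets that the probe table assigns to several genes (328) or to none (2443) were left out, and the brightest of the 6504 others stood for each gene. Genes above the array's 20th percentile on at least 3 arrays were tested. limma 3.58.1 (R 4.3.3) fitted 6 group means to the 18 arrays, with an intensity trend in eBayes and 12 residual degrees of freedom, for 11 comparisons with Benjamini-Hochberg adjustment over 5545 genes and a threshold of 0.05. Errors are standard errors of this fit unless called SD. The procedure was tested on simulated data. Intensities printed per array are normalised, with exceptions. Those of FAR1, HIS3, TRP1, the actin, TBP, SRB4 and BioDn controls and the mating type markers are as deposited. The number of arrays sets the precision.

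The members and gene lists were chosen with earlier results of these data known. Members named with values are the 5 largest called falls and rises in WT between carbon sources, the first 3 each way in far1Δ and FAR1OE and any called against the WT direction, up to 5 each way between strains (or the 3 smallest p), the largest WT change per role, SSF1, SSF2, RLP7, RLP24, MRT4 and members without a call between carbon sources. Others were named after their values were seen. Alternatives were the deposited scale, median-centred arrays, a pseudocount of 2.9, no filter, averaged probe sets, the replicate number or the BioDn ratio as a block, and leaving out doubted arrays or each array in turn. Leaving out both sets of doubted arrays at once was added after seeing the data. Promoter sequences were not analysed here.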

Additional observations from a re-analysis of the deposited data

Results flagged for a closer look

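The difference of the FAR1OE effect on TIF6 between ethanol and glucose (-1.15 on the log2 scale, adjusted p = 0.0217 in limma) is the only member result that an interaction test called. TIF6 was 1.22-fold higher in FAR1OE than in WT in ethanol, where it was not called, and 2.69-fold higher in glucose. In all 3 glucose arrays of FAR1OE it lay above all 3 of WT. The same held in ethanol (147 to 163 in FAR1OE, 117 to 134 in WT). Groups did not overlap for 22.9% of all genes in glucose and 19.7% in ethanol. FAR1OE ethanol array 3 had a FAR1 signal of 3.3. The interaction call was kept in 14 of 18 fits without 1 array and was lost on the deposited scale. The value without the arrays lacking actin 5′ signal is given above. The corresponding difference for far1Δ was -0.85 and did not pass the test (adjusted p = 0.271).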

How the results depend on the processing

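On the deposited scale the members called between ethanol and glucose were 13 in far1Δ, 11 in FAR1OE and 7 in WT, with medians of -0.56, -0.61 and -0.31. The strain medians in glucose were 0.35 for far1Δ and 0.36 for FAR1OE over WT, against 0.40 and 0.49 over all genes. The interaction medians were -0.23 for far1Δ and -0.38 for FAR1OE, against -0.30 and -0.41 over all genes, with 0 members called for FAR1OE. There 8 members changed sign in WT, 3 in far1Δ and 4 in FAR1OE, among them SSF2 (0.12) and RLP24 (0.14) in WT and SPB4 (0.19) in FAR1OE. With median-centred arrays 5 members were called in FAR1OE over WT glucose, and the carbon source medians were -1.04 in far1Δ and -1.06 in FAR1OE. Averaged probe sets gave 1 call in FAR1OE over far1Δ glucose (NOG2). FAR1OE over WT glucose had 1 call with the BioDn ratio as a block, without the arrays lacking actin 5′ signal and without both sets of doubted arrays. In the last 2 settings, with 1 FAR1OE glucose array left, the FAR1OE interaction had 0 calls. Without the actin-lacking arrays the FAR1OE carbon source median was -0.84, and SPB4 in FAR1OE was at 0.014 without both sets.

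Leaving out each array in turn gave 1 to 4 members in FAR1OE over WT glucose, 0 to 2 in FAR1OE over far1Δ glucose and 0 to 1 in the FAR1OE interaction. Between carbon sources it gave 38 to 43 in far1Δ, 41 to 45 in FAR1OE and 43 to 49 in WT. SPB4 ran from -0.047 to 0.27 in WT and from -0.34 to 0.0063 in FAR1OE. A pseudocount of 2.9 and no filter left every member count within 1.5 times. The settings that leave out arrays also have fewer arrays, and the cause of the shifts was not tested. The shares of all genes called were not set beside these counts or those with a replicate block below.

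The replicate numbers showed no clear pairing of the arrays. Over 45 pairs of arrays with the same number, deviations from the group means correlated at -0.38 to 0.18 (median 0.00), with 7 pairs over 0.1. Over 90 pairs with different numbers they correlated at -0.23 to 0.31 (median -0.004), with 14 pairs over 0.1. With 3 arrays a group these values do not tell whether same-numbered cultures were handled together. With the replicate number as a block 41, 44 and 49 members were called between ethanol and glucose in far1Δ, FAR1OE and WT, and 1 in far1Δ and 3 in FAR1OE over WT glucose.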

Other observations

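In the gene order of the reference annotation (R64) only 1 member lies beside another gene of the lists used here. RIX1 (YHR197W), a large subunit assembly factor, is next to UTP9 (YHR196W), a subunit of the small subunit processome. Between ethanol and glucose UTP9 fell by 1.07 in far1Δ, 1.054 in FAR1OE and 1.15 in WT on the log2 scale, and RIX1 by 1.33, 1.37 and 1.43.

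PRP43, a helicase that serves both ribosome assembly and splicing, was the only one of the 39 further large subunit assembly genes called between strains. It was lower in FAR1OE than in WT in ethanol (-0.89 ± 0.17, adjusted p = 0.0267 in limma) and in glucose (-0.80, adjusted p = 0.00746). That is 2.56% of the 39 genes in each comparison, against 0.379% of all genes called in ethanol and 7.39% in glucose. PRP43 was not tested without the doubted FAR1OE arrays.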
